A study of Mus musculus with 12 samples.

Results

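The 40 genes described here encode MYC, its partner MAX, the MYC relative MYCN, and proteins that build ribosomes or supply polyamines and pyrimidines to growing cells. They were taken by gene symbol from a list, and all 40 were found among the 47643 genes of the deposited table. RNA had been sequenced from mouse spleen cells, labelled as naive CD4 T cells of C57BL/6 mice, 3 days after they were seeded on anti-CD3 and anti-CD28 antibody (2 μg/ml of each, 500000 cells per well). Each of the 4 groups had 3 libraries. They were Tnfr2-/- cells with TNF and TGF-β, wild-type (WT) cells with TNF and TGF-β, WT cells with IL-6 and TGF-β, and WT cells without added cytokine (Th0). The dose was 20 ng/ml for TNF or IL-6, and 2 ng/ml for TGF-β. Tnfr2 is the gene of TNF receptor 2 (symbol Tnfrsf1b), and neither Tnfr2-/- Th0 cells nor cells given TGF-β alone were analysed here. All groups therefore shared activation through CD3 and CD28, and the 3 cytokine groups also shared TGF-β. The labels give neither the age of the mice, nor how the Tnfr2 allele was made, nor whether the libraries of a group came from separate mice or wells. The p-values thus measure the spread between these libraries, which may be technical.

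As background, a T cell that is activated through its antigen receptor enlarges before it divides, and it has to make many new ribosomes. MYC pairs with MAX, binds the DNA sequence CACGTG (the E-box) and raises transcription of genes for nucleolar proteins, RNA polymerase I, and polyamine and nucleotide synthesis. In the nucleolus, RNA polymerase I makes the ribosomal RNA precursor, small nucleolar ribonucleoproteins (snoRNPs) guide its chemical modification, and assembly factors fold and cut it into the small and large subunits.

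Values are FPKM, read fragments per kilobase of transcript normalised to library size, so they can be compared between genes per unit of length. Differences are on the log2(FPKM + 1) scale, the group named before "against" minus the other, from a limma fit over the 13082 genes that reached 1 FPKM in 3 or more libraries. A gene is said to have risen or fallen when its Benjamini-Hochberg adjusted p, taken over these 13082 genes, was under 0.05. Of the 40 genes 39 entered the test, and all 39 were at 1 FPKM or more in all 12 libraries. Mycn did not enter it.

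Some facts of the libraries bear on every result below. The knocked-out gene Tnfrsf1b was at 4.87, 3.71 and 3.19 FPKM in Tnfr2-/- cells with TNF plus TGF-β, against 74.4, 108 and 70.8 in WT cells with TNF plus TGF-β. Estimated depth was 16700000 to 24000000 fragments per library. The T cell receptor complex gene Cd3e was at 199 FPKM in the lowest library and 628 in the highest, but Cd4 was below Cd8b1 in the mean of every group (58.2 against 161 FPKM with TNF plus TGF-β, for example), which goes against the CD4 label. The summed FPKM of 7 B cell markers (Cd79a, Cd79b, Ms4a1, Cd22, Blnk, Pax5 and Ebf1) was 1836, 3349 and 4133 in the Tnfr2-/- libraries, 247, 309 and 246 with TNF plus TGF-β, 856, 397 and 880.1 with IL-6 plus TGF-β and 1059, 709 and 1154 in Th0. None of the 7 was at 0 in a group mean. In such mixed RNA, fewer cells of a type and less RNA per cell cannot be told apart. The third Tnfr2-/- column carries the number 4, which no label carries, and is called the library numbered 4.

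As a group, the 40 genes were highest in Th0 and lowest in Tnfr2-/- cells. Their summed FPKM was 3201, 2998 and 2219 in Tnfr2-/- cells, 3961, 3474 and 4413 with TNF plus TGF-β, 4954, 4789 and 4580.3 with IL-6 plus TGF-β and 6042, 6770.1 and 6237 in Th0, with no overlap between any of the 4 groups. As a share of all FPKM the sum was 0.289% to 0.429% in Tnfr2-/- cells, 0.504% to 0.601% with TNF plus TGF-β, 0.598% to 0.677% with IL-6 plus TGF-β and 0.734% to 0.863% in Th0, where the WT cytokine groups just overlapped. In 26 of the 40 genes the group means followed this same order. The highest mean was in Th0 for 33 genes, and the lowest was in Tnfr2-/- cells for 34. Levels ran widely within the list, with 34 of the 40 genes at 10 FPKM or more in every library and 7 at 100 FPKM or more in every library. Npm1, which encodes the nucleolar chaperone nucleophosmin, was the most abundant, at 952, 1208 and 1023 FPKM in Th0. Apart from Mycn, Polr1a and Utp20 stood near the low end. Polr1a averaged 7.61 FPKM in Tnfr2-/- cells and 13.9 in Th0, and Utp20 averaged 2.97 in Tnfr2-/- cells and 7.35 in Th0.

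**Figure D1:**
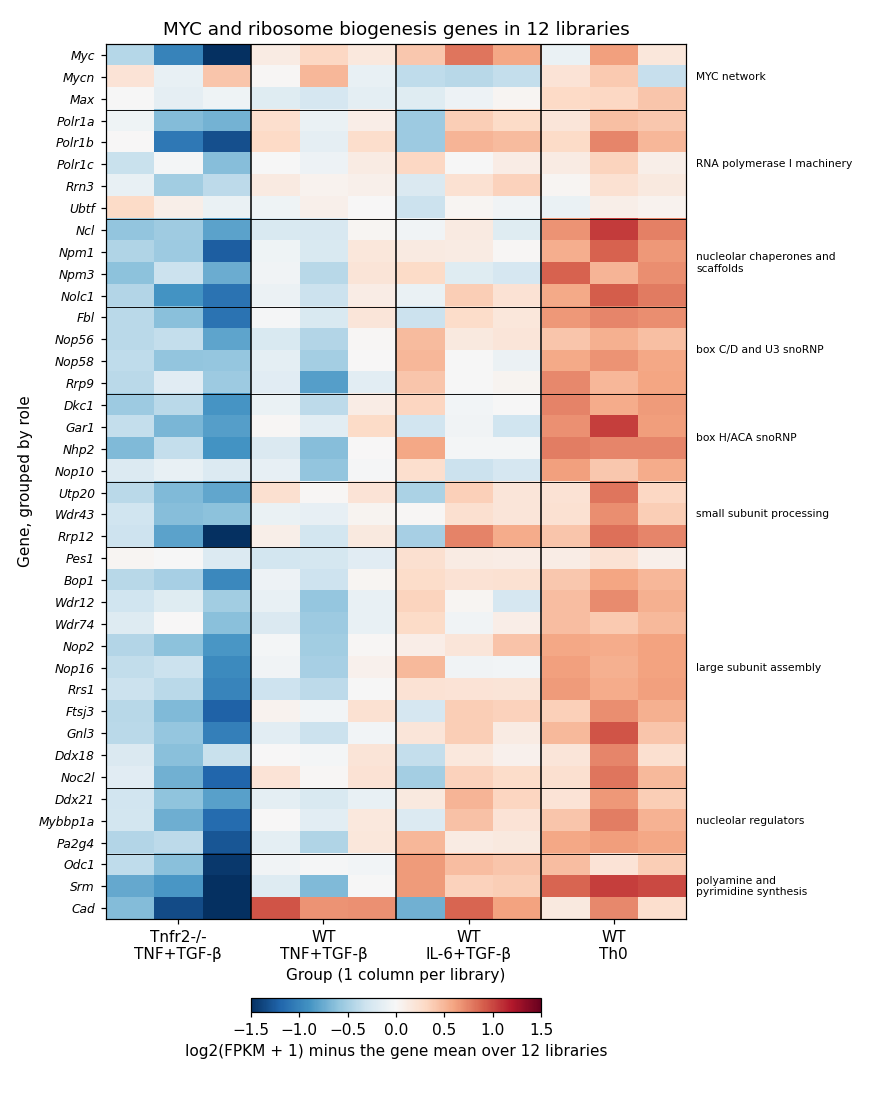
Each row is a gene, each column a library, and the colour is log2(FPKM + 1) minus the gene's mean over the 12 libraries (scale cut at −1.5 and 1.5). Rows are grouped by role. Most rows run from blue in the 3 Tnfr2-/- libraries to red in the 3 Th0 libraries, while Ubtf and Pes1 vary little and Cad is highest with TNF plus TGF-β.

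Myc RNA itself did not follow that order within WT cells. Myc (ENSMUSG00000022346.14, chromosome 15, 61985391 to 61990374 in GENCODE M21 on GRCm38) was at 116, 77.5 and 49.0 FPKM in Tnfr2-/- cells and 169, 193 and 174 in WT cells with TNF plus TGF-β. With IL-6 plus TGF-β it was at 206, 273 and 233, and in Th0 at 145, 239.6 and 175 FPKM. All 3 Tnfr2-/- libraries lay below all 9 WT libraries, while the Th0 libraries overlapped both WT cytokine groups. Myc was lower in Tnfr2-/- than in WT cells (log2 difference −1.22 ± 0.26 (SE), adjusted p = 0.00387). It did not pass the test with TNF plus TGF-β against Th0 (−0.03, but 0.14 under TPM, 95% confidence interval −0.61 to 0.54, adjusted p = 0.94), with IL-6 plus TGF-β against Th0 (0.37, 95% confidence interval −0.21 to 0.94, adjusted p = 0.365), or between the cytokine pairs (−0.40, 95% confidence interval −0.98 to 0.18, adjusted p = 0.389).

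Max (ENSMUSG00000059436.12, chromosome 12, 76937269 to 76962201) showed another pattern. It was at 102, 93.5 and 98.7 FPKM in Tnfr2-/- cells, 90.6, 86.4 and 92.9 with TNF plus TGF-β, 91.0, 97.7 and 105 with IL-6 plus TGF-β and 127, 129 and 138 in Th0. Every Th0 library was above the other 9 libraries. Max fell with TNF plus TGF-β against Th0 (log2 difference −0.54 ± 0.10 (SE), adjusted p = 0.00148) and with IL-6 plus TGF-β against Th0 (log2 difference −0.42 ± 0.10 (SE), adjusted p = 0.00872). It was the only member whose 3 Tnfr2-/- libraries all lay above the 3 WT ones with TNF plus TGF-β, but that difference, 0 under TPM, did not pass (0.12, 95% confidence interval −0.09 to 0.34, adjusted p = 0.336). Mycn, the MYC relative known from neural and early progenitor cells, was at 0.60, 0.28 and 0.84 FPKM in Tnfr2-/- cells, 0.40, 0.95 and 0.28 with TNF plus TGF-β, 0.06, 0.04 and 0.08 with IL-6 plus TGF-β and 0.59, 0.82 and 0.09 in Th0. At the estimated depth 3 fragments on a 1 kilobase transcript gave 0.125 to 0.18 FPKM, and since several Mycn values lay below that, no fold is given.

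The E-box was looked for in the promoters of the members, from 250 bases before to 50 bases after the start, as listed by RefSeq for GRCm38.p6. Of the 40 genes 33 matched by symbol, and Bop1, Fbl, Myc, Npm1, Rrp12, Rrs1 and Srm did not. CACGTG reads the same on both strands, so a single search covers them. It was present for 7 of the 33 genes (21.2%), which were Max, Mybbp1a, Nop2, Pes1, Rrn3, Utp20 and Wdr43, against 8.09% of the 27025 genes of the whole table. Of 6 genes first meant to be shown (Ncl, Nop56, Odc1, Cad, Npm1 and Polr1b), 5 were in the table and 0 held the motif. The 4 shown instead were chosen after that search, as genes of different roles that do hold it, with CACGTG in capitals. They are Max (chr12:76962199-76962498, minus strand), Nop2, an rRNA methyltransferase gene (chr6:125131633-125131932, plus strand), Mybbp1a, which encodes a nucleolar MYB-binding protein (chr11:72441077-72441376, plus strand), and Rrn3, which encodes an initiation factor of RNA polymerase I (chr16:13780449-13780748, plus strand).
Max: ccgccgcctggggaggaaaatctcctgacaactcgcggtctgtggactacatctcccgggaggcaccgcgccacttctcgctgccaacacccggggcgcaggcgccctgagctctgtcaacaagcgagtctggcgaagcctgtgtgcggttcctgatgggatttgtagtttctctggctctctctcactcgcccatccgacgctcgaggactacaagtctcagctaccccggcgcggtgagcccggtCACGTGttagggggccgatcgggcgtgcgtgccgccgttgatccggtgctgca
Nop2: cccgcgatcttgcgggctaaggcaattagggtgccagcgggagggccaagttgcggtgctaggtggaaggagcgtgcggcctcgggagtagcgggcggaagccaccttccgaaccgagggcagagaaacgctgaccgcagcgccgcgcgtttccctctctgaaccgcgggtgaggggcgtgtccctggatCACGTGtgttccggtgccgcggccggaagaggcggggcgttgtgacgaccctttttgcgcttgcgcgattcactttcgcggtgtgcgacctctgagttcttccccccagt
Mybbp1a: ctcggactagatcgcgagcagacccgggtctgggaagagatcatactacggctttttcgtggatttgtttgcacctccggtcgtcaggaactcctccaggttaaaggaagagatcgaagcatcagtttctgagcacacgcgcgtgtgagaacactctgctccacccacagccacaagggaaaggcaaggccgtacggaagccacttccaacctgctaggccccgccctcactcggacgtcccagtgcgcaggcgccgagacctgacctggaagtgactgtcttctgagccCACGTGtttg
Rrn3: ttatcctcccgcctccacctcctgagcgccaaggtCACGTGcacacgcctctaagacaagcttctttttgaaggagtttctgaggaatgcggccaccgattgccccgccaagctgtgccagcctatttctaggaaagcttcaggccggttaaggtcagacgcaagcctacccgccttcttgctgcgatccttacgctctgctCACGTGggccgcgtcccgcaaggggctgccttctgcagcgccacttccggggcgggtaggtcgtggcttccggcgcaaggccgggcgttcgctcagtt
The motif began 3 bases before the start in Max, 60 bases before it in Nop2 and 40 bases after it in Mybbp1a. Rrn3 held 2 copies, beginning 215 and 48 bases before the start. Among these 4, Max and Nop2 fell with TNF plus TGF-β against Th0, whereas Mybbp1a (−0.57, adjusted p = 0.0657) and Rrn3 (−0.05, adjusted p = 0.85) did not pass. A match is a run of letters and not a measured binding site.

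With TNF plus TGF-β, snoRNP and chaperone genes were lower than in Th0, that is, than with activation alone, and the 5 members that serve RNA polymerase I did not pass the test. Of the 39 tested members 25 fell, against 13% of all tested genes, and 0 rose (18.7% of all tested genes), nor did any member rise at an unadjusted p under 0.05 in limma. The median difference of the members was −0.69, against 0.07 over all tested genes. The 3 libraries of each group did not overlap for 30 of the 39, all lower with TNF plus TGF-β, where 23.2% of all tested genes were lower and 31.9% higher without overlap. In size, 2 members fell at least 2-fold, Srm and Nhp2.

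Srm (ENSMUSG00000006442.10, chromosome 4, 148591503 to 148594993), which encodes spermidine synthase, was at 171, 122 and 194 FPKM with TNF plus TGF-β, against 357, 400.1 and 387 in Th0 (log2 difference −1.25 ± 0.24 (SE), adjusted p = 0.00193). Nhp2 (chromosome 11, 51619735 to 51623714), a subunit gene of the box H/ACA snoRNPs that guide pseudouridylation, was at 167, 125 and 197 FPKM with TNF plus TGF-β, against 333, 325 and 326 in Th0 (log2 difference −1.03 ± 0.20 (SE), adjusted p = 0.0025). Next in size was Rrp9, which encodes a protein of the U3 snoRNP, at 61.2, 38.7 and 61.9 FPKM with TNF plus TGF-β, against 115, 97.9 and 105 in Th0 (log2 difference −0.99 ± 0.19 (SE), adjusted p = 0.00205). For all 3 genes the highest TNF plus TGF-β library was well below the lowest Th0 library.

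The nucleolar chaperones and both classes of snoRNP fell as whole sets. Ncl (ENSMUSG00000026234.12, chromosome 1, 86344719 to 86359400), which encodes the abundant nucleolar protein nucleolin, was at 226, 225 and 271 FPKM with TNF plus TGF-β, against 424, 553 and 451 in Th0 (log2 difference −0.98 ± 0.14 (SE), adjusted p = 0.000276). Npm1 (ENSMUSG00000057113.13, chromosome 11, 33152287 to 33163206) was at 626, 556 and 732 FPKM with TNF plus TGF-β, against 952, 1208 and 1023 in Th0 (log2 difference −0.74 ± 0.19 (SE), adjusted p = 0.0132). The other 2 of the 4 chaperone and scaffold genes, Npm3 and Nolc1, fell by 0.79 and 0.85 on the log2 scale. All 4 box C/D and U3 genes fell. Among them Fbl (ENSMUSG00000046865.7, chromosome 7, 28169710 to 28179269), the methyltransferase gene fibrillarin, was at 158, 135 and 182 FPKM with TNF plus TGF-β, against 251, 266 and 259 in Th0 (log2 difference −0.72 ± 0.20 (SE), adjusted p = 0.0158), and the core proteins Nop56 and Nop58 fell by 0.69 and 0.82. All 4 box H/ACA genes fell too, with Dkc1, the pseudouridine synthase gene dyskerin, at 136 ± 23.7 FPKM with TNF plus TGF-β and 232 ± 15.0 in Th0 (SD, n = 3 each), and log2 differences of −0.73 for Gar1 and −0.77 for Nop10.

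The members that serve RNA polymerase I gave no calls. Of these 5 genes 0 fell in limma (0 also at an unadjusted p under 0.05), with differences from −0.36 for Polr1b to 0 for Ubtf. Ubtf, which encodes the factor UBF that binds ribosomal DNA, was at 76.1 ± 3.64 FPKM with TNF plus TGF-β and 76.4 ± 5.11 in Th0 (SD, n = 3 each; 95% confidence interval −0.29 to 0.28, adjusted p = 0.986). Polr1b, a core polymerase subunit, averaged 16.6 ± 2.78 FPKM with TNF plus TGF-β and 21.6 ± 3.51 in Th0, and the groups overlapped (95% confidence interval −1.12 to 0.39). The means of Polr1a, Polr1c and Rrn3 were 11.5, 53.8 and 23.2 FPKM with TNF plus TGF-β, against 13.9, 60.8 and 24.1 in Th0. The polymerase I genes outside the members did include calls. Its subunit genes Polr1d (−0.46, adjusted p = 0.0337), Polr1e (−0.40, adjusted p = 0.0388) and Cd3eap (−0.85, adjusted p = 0.00652) fell, as did its factor gene Taf1d (−0.58, adjusted p = 0.0136).

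Values shifted with transcript length between these groups as well. For transcripts over 3013.5 bases, the median deviation of the genes from their means on the log2 scale was 0.14, 0.16 and 0.06 with TNF plus TGF-β, against −0.21, −0.09 and −0.19 in Th0. For transcripts of up to 901 bases it was −0.08, −0.16 and −0.04 with TNF plus TGF-β, against 0.11, 0.02 and 0.09 in Th0. Of the 5 polymerase I members 4 have median transcript lengths over 3013.5 bases. Split at 1926 bases, 16 of 20 shorter members fell, with a median of −0.74, and 9 of 19 longer ones did, with a median of −0.50. Length was the median over a gene's annotated protein-coding transcripts, short ones included, and need not be that of its main transcript. Utp20 (784 bases) and Gnl3 (556.5 bases) thus counted as shorter. With the length trend removed in each library 30 of the 39 members fell, and the differences of Polr1b and Ubtf were −0.61 and −0.24, neither of which passed the test.

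Of 11 large-subunit assembly genes 8 fell. Pes1, Bop1 and Wdr12 form 1 complex, PeBoW, needed for the large subunit, and their log2 differences were −0.37, −0.62 and −0.84. Nop2, Nop16, Rrs1, Gnl3 (nucleostemin) and Wdr74 fell by 0.76, 0.75, 0.84, 0.79 and 0.74. The helicase gene Ddx18, the rRNA methyltransferase gene Ftsj3 and Noc2l did not pass, at −0.33 (adjusted p = 0.194), −0.45 (adjusted p = 0.129) and −0.36 (adjusted p = 0.323). In small-subunit processing, Wdr43 fell (−0.50, adjusted p = 0.0208), while Utp20 (−0.29, adjusted p = 0.369) and Rrp12 (−0.67, adjusted p = 0.167) did not pass. The helicase gene Ddx21 and the growth regulator gene Pa2g4 fell by 0.57 and 0.73.

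The metabolic genes were split. Odc1 (ENSMUSG00000011179.7, chromosome 12, 17544794 to 17551505), the rate-limiting enzyme of polyamine synthesis, was at 273, 279 and 274 FPKM with TNF plus TGF-β, against 389, 325 and 366 in Th0. Its groups did not overlap, but the difference did not pass (log2 difference −0.38 ± 0.21 (SE), adjusted p = 0.194). Cad (ENSMUSG00000013629.16, chromosome 5, 31054780 to 31078479), whose product starts pyrimidine synthesis, was at 45.4, 37.6 and 38.0 FPKM with TNF plus TGF-β, against 25.7, 38.9 and 27.7 in Th0, and was the only tested member with a mean difference above 0 (log2 difference 0.39 ± 0.42 (SE), adjusted p = 0.496).

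All 7 B cell markers and all 4 MHC class II genes also fell between these groups, with summed FPKM of the class II genes of 2722 to 3973 with TNF plus TGF-β, against 6899.9 to 11388 in Th0. Of 8 proliferation markers 1 was lower. Cd8a (1.52, adjusted p = 0.0072) and Cd8b1 (0.93, adjusted p = 0.0213) rose, and the summed FPKM of Cd4, Cd8a and Cd8b1 was 381 to 411 with TNF plus TGF-β, against 134 to 243 in Th0. The part of these shifts in the members' difference was not tested. Rescaling to TPM, which moved the median of all genes to 0.22, left 20 members lower, with a median of −0.52.

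**Figure D2:**
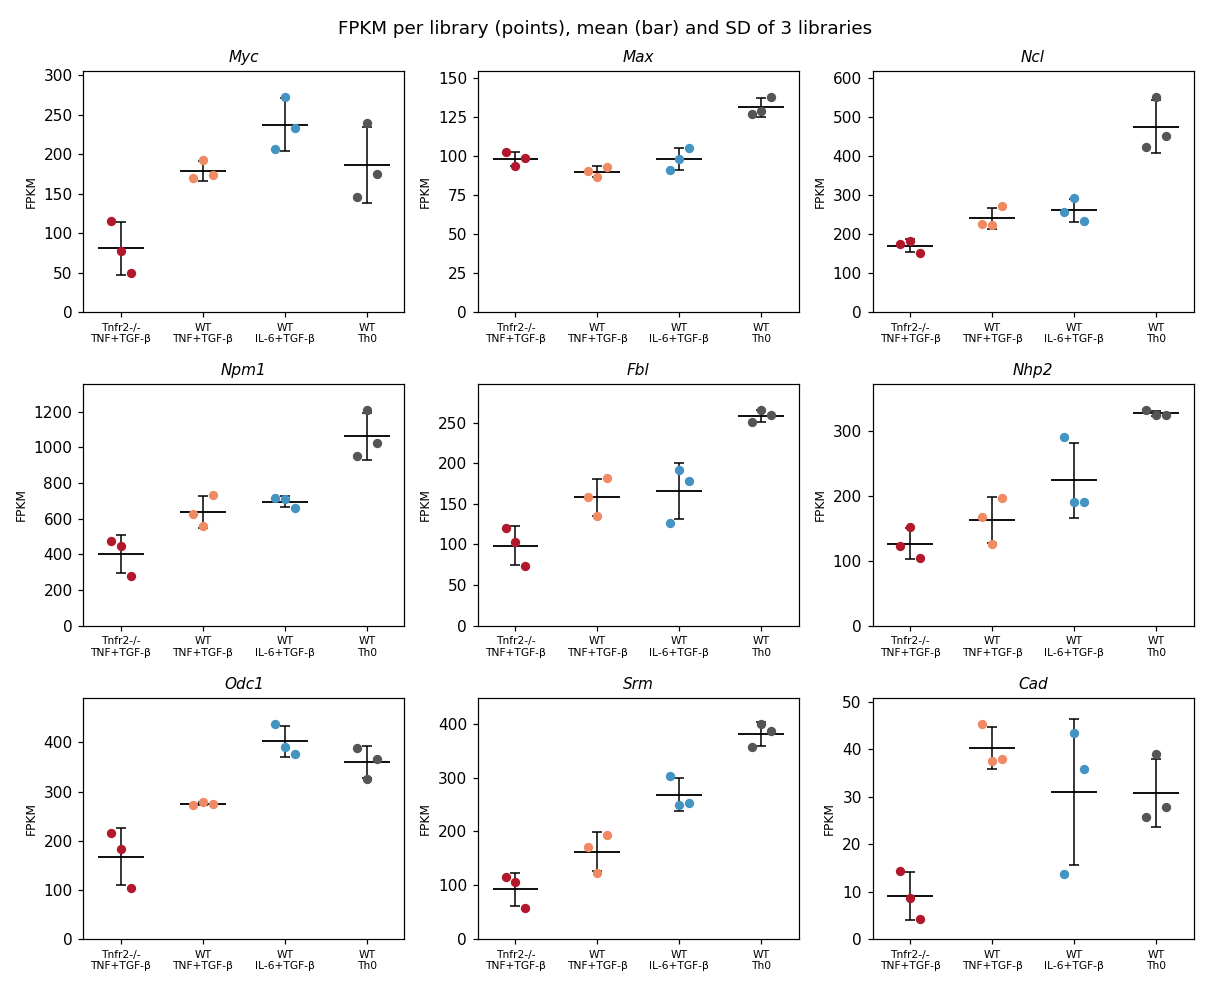
FPKM in each library (points) with the mean and SD of the 3 libraries of a group, for 9 members. Ncl, Npm1, Fbl, Nhp2 and Srm are highest in the 3 Th0 libraries, Myc overlaps among the WT groups, and Cad has 1 IL-6 plus TGF-β library (replicate 1) at 13.7 FPKM, far below the other 2.

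IL-6 plus TGF-β is the standard pair for inducing Th17 cells. With it, the 4 nucleolar chaperone and scaffold genes and 3 of the 4 box H/ACA genes were again lower than in Th0. Most other members did not pass the test, among them the box H/ACA gene Nhp2 (−0.57, adjusted p = 0.0611). Of the 39 tested members 10 fell, against 9.15% of all tested genes, and 0 rose (14.1%), with 0 higher at an unadjusted p under 0.05 in limma. The members' median was −0.40, against 0.04 over all tested genes, and without overlap 22 members were lower (16.8% of all tested genes) and 0 higher (22.4%). The Th0 libraries served here as well as in the previous comparison.

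The largest fall was in Gar1 (chromosome 3, 129824912 to 129831396), a box H/ACA snoRNP subunit, at 49.7, 58.8 and 49.4 FPKM with IL-6 plus TGF-β, against 98.2, 126 and 94.5 in Th0 (log2 difference −0.99 ± 0.17 (SE), adjusted p = 0.00094). Ncl was at 256, 292 and 234 FPKM there, below the Th0 values above (log2 difference −0.86 ± 0.14 (SE), adjusted p = 0.000752). Npm3, a nucleoplasmin-family chaperone gene, was at 79.9, 57.5 and 54.5 FPKM with IL-6 plus TGF-β, against 121, 93.5 and 107 in Th0 (log2 difference −0.75 ± 0.19 (SE), adjusted p = 0.0143). In each of these genes every IL-6 plus TGF-β library was below every Th0 library. All 4 chaperone and scaffold genes fell, Npm1 (717, 709 and 658 FPKM; −0.60, adjusted p = 0.041) and Nolc1 (−0.59, adjusted p = 0.0428) included. Of the box H/ACA genes Dkc1 (−0.56, adjusted p = 0.0275) and Nop10 (−0.63, adjusted p = 0.0205) also fell, and of the box C/D genes only Fbl did, at 127, 192 and 179 FPKM under this pair (−0.66, adjusted p = 0.0287). Max and the PeBoW gene Wdr12 (−0.54, adjusted p = 0.047) complete the 10.

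The remaining groups gave no calls in this comparison. The 5 polymerase I genes differed by −0.36 to −0.01, the 3 small-subunit genes by −0.42 to −0.29, and the 3 nucleolar regulators by −0.42 to −0.08. Odc1 was at 438, 389.8 and 377 FPKM under this pair (0.16, adjusted p = 0.649), and Srm was at 303, 249 and 253 FPKM, below all Th0 libraries (−0.51, adjusted p = 0.15). Cad was at 13.7, 43.3 and 35.9 FPKM with IL-6 plus TGF-β (−0.12, 95% confidence interval −1.02 to 0.79), and without IL-6 plus TGF-β replicate 1 its difference was 0.37. That library also had lower values for long genes in general, with a median deviation from the genes' means of −0.21 on the log2 scale for transcripts over 3013.5 bases, against 0.11 and 0.10 in replicates 2 and 3. The 3 Th0 libraries lay at −0.21 to −0.09 on that measure. The class II sum was 2687 to 5949.7 FPKM with IL-6 plus TGF-β, against the Th0 range above, and 2 of its 4 genes fell. Of 8 myeloid markers 3 fell, with sums of 37.8 to 87.5 FPKM with IL-6 plus TGF-β, against 141 to 199.7 in Th0. Of 7 B cell markers 2 fell, Ms4a1 (−1.35, adjusted p = 0.0156) and Pax5 (−0.86, adjusted p = 0.046). Of the coreceptor genes Cd8a rose (1.44, adjusted p = 0.0119). Cd4 (−1.35, adjusted p = 0.0999) and Cd8b1 (0.60, adjusted p = 0.133) did not pass. The part of these shifts was not tested. The count of 10 fell to 3, 6 and 4 without Th0 replicates 1, 2 and 3, and to 5 and 4 without IL-6 plus TGF-β replicates 2 and 3. It was 5 under TPM, 5 without the filter on low values, and 18 when the trend with transcript length was removed in each library.

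Set directly against each other, the cytokine pairs differed in 1 member that passed the test, a gene of the PeBoW complex. With TNF plus TGF-β 1 of the 39 tested members was lower (5.50% of all tested genes) and 0 were higher (7.31%), with 12 lower and 0 higher at an unadjusted p under 0.05 in limma. The median difference was −0.22, against 0 over all tested genes, and without overlap 12 members were lower and 0 higher, against 15.1% and 16.9% of all tested genes. The called gene was Pes1 (ENSMUSG00000020430.12, chromosome 11, 3963975 to 3980004), at 51.6, 51.9 and 55.5 FPKM with TNF plus TGF-β, against 73.9, 68.4 and 67.6 with IL-6 plus TGF-β (log2 difference −0.39 ± 0.10 (SE), adjusted p = 0.026). The count was 0 under TPM and without any of IL-6 plus TGF-β replicates 1, 2 and 3 or TNF plus TGF-β replicates 1 and 2. It was 4 with median-ratio scaling, 3 without Tnfr2-/- replicate 1 and 6 without the Tnfr2-/- library numbered 4. Those Tnfr2-/- libraries enter only through the shared estimate of spread and the filter that sets which genes are tested.

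Several members that did not pass the test also had lower means with TNF plus TGF-β, and only some are named here. Srm averaged 162 ± 36.4 FPKM with TNF plus TGF-β and 268 ± 30.1 with IL-6 plus TGF-β (SD, n = 3 each; −0.74, adjusted p = 0.0624), without overlap. Nop56 averaged 221 ± 36.0 and 309 ± 39.5 FPKM in the same order (−0.48, adjusted p = 0.0609). Ddx21 was −0.49 (adjusted p = 0.0676), Rrp9 −0.53 (adjusted p = 0.0917) and Odc1 −0.54 (adjusted p = 0.134) on the log2 scale. By contrast, the chaperones Ncl (−0.12, 95% confidence interval −0.42 to 0.19) and Npm1 (−0.13, 95% confidence interval −0.55 to 0.29) and the box C/D methyltransferase Fbl (−0.06, 95% confidence interval −0.48 to 0.37) had intervals that included 0. The B cell marker sum was 246 to 309 FPKM with TNF plus TGF-β, against 397 to 880.1 with IL-6 plus TGF-β, and Cd4 was higher (2.18, adjusted p = 0.0199). Their part in these differences was not tested.

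**Figure D3:**
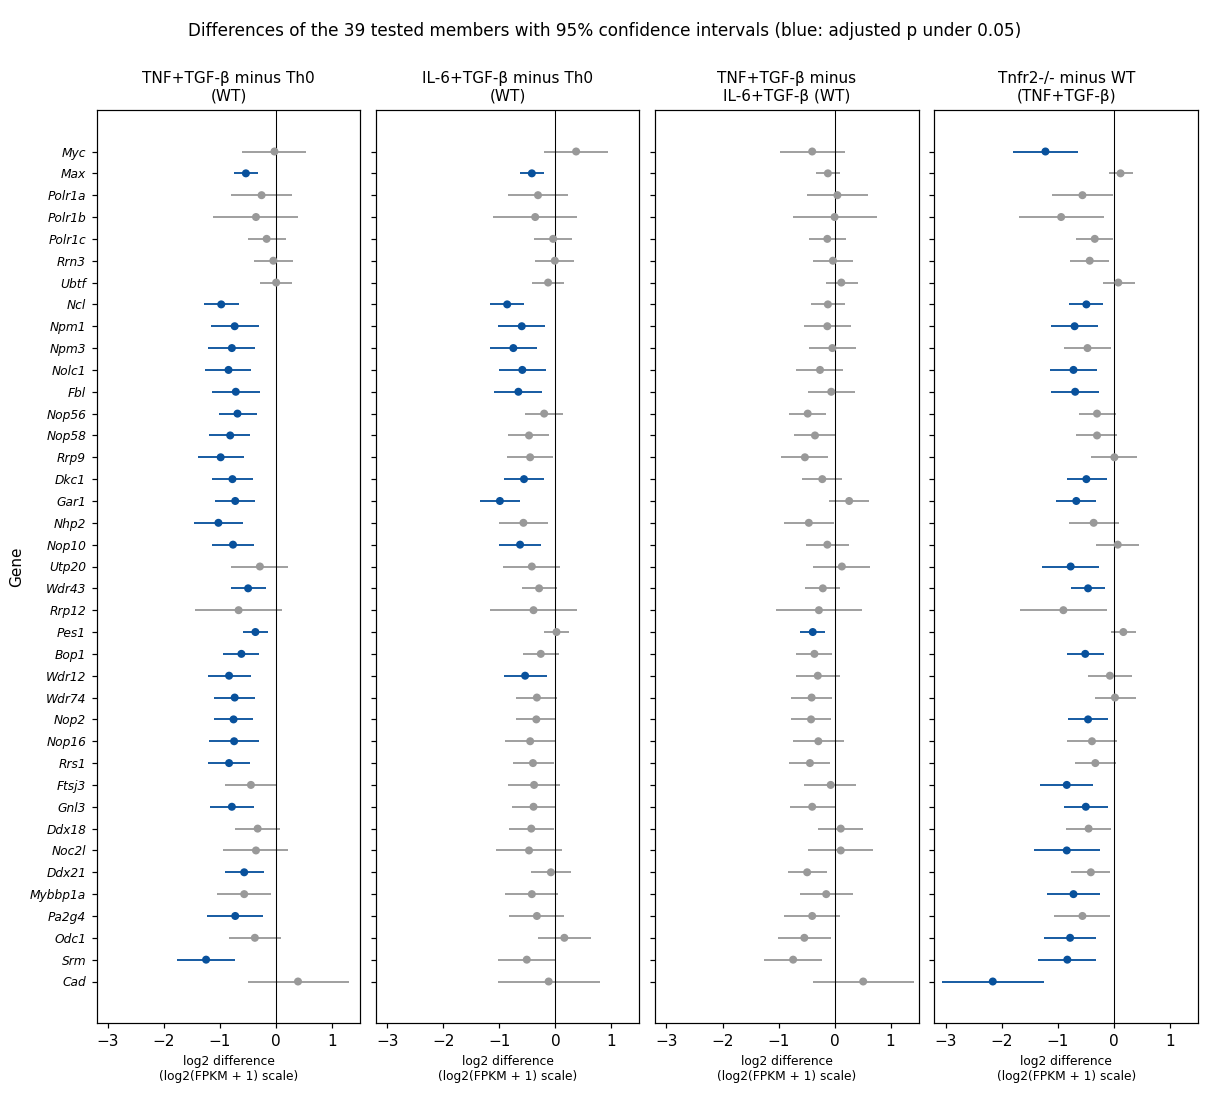
Log2 differences of the 39 tested members in the 4 comparisons, with 95% confidence intervals from limma. Blue marks an adjusted p under 0.05, all 54 of them below 0. The 5 polymerase I members (Polr1a to Ubtf) are grey in every panel, and Cad and Myc lie far to the left in the Tnfr2-/- panel only.

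Without TNF receptor 2, under the same TNF plus TGF-β, Myc and all 3 metabolic genes were lower, together with a part of the nucleolar genes. Of the 39 tested members 18 were lower in Tnfr2-/- than in WT cells, against 17.5% of all tested genes, and 0 were higher (19.9%), also at an unadjusted p under 0.05 in limma. The median difference was −0.49, against 0 over all tested genes, and without overlap 21 members were lower (24.0% of all tested genes) and 1, Max, higher (26.8%). At least 2-fold lower were Cad and Myc. Cad was at 14.4, 8.56 and 4.30 FPKM in Tnfr2-/- cells, against 45.4, 37.6 and 38.0 in WT cells (log2 difference −2.16 ± 0.42 (SE), adjusted p = 0.00185). Odc1 was at 216, 182 and 103 FPKM in Tnfr2-/- cells, against 273, 279 and 274 in WT cells (log2 difference −0.78 ± 0.21 (SE), adjusted p = 0.0137). Srm was at 115, 106 and 57.8 FPKM in Tnfr2-/- cells, against 171, 122 and 194 in WT cells (log2 difference −0.83 ± 0.24 (SE), adjusted p = 0.0165). In each of these genes, and in Myc, the library numbered 4 was the lowest of the 12.

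Among the nucleolar genes, the rRNA methyltransferase gene Ftsj3 was at 37.7, 31.7 and 21.3 FPKM in Tnfr2-/- cells, against 52.4, 49.2 and 59.7 in WT cells (log2 difference −0.84 ± 0.21 (SE), adjusted p = 0.00929). Close to it in size were Noc2l (−0.84, adjusted p = 0.0283), whose exons overlap those of a gene on the other strand by up to 598 bases, and the small-subunit gene Utp20 (−0.77, adjusted p = 0.0222). Ncl was at 176, 183 and 152 FPKM (−0.49, adjusted p = 0.0161), Npm1 at 476, 448 and 276 (−0.70, adjusted p = 0.0142) and Fbl at 120.0, 103 and 73.5 (−0.69, adjusted p = 0.0158) in Tnfr2-/- cells, and none of these overlapped the WT values above. Nolc1, Dkc1, Gar1, Wdr43, Bop1, Nop2, Gnl3 and Mybbp1a were also lower, by 0.46 to 0.72 on the log2 scale. Polr1b was at 14.8, 6.55 and 5.34 FPKM in Tnfr2-/- cells and missed the threshold (−0.94, adjusted p = 0.0505), as did Rrn3 (−0.43, adjusted p = 0.0529) and Rrp12 (−0.90, adjusted p = 0.0634).

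Other members sat near 0 in this comparison. Rrp9 averaged 53.4 ± 7.33 FPKM in Tnfr2-/- cells and 53.9 ± 13.2 in WT cells (SD, n = 3 each; 95% confidence interval −0.40 to 0.42), and Nop10 139 ± 5.48 and 134 ± 26.7 in the same order (95% confidence interval −0.31 to 0.45). Wdr74 (95% confidence interval −0.34 to 0.39), Wdr12 (95% confidence interval −0.46 to 0.32) and Ubtf (95% confidence interval −0.20 to 0.37) likewise had intervals on both sides of 0. Pes1 was at 64.0, 62.0 and 54.2 FPKM in Tnfr2-/- cells, 2 of them above all 3 WT libraries (0.17, adjusted p = 0.21). The 3 PeBoW genes differed by 0.17 (Pes1), −0.51 (Bop1) and −0.07 (Wdr12) on the log2 scale. The WT libraries with TNF plus TGF-β served in this comparison as well as in those against Th0 and IL-6 plus TGF-β.

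Markers of other cells moved with genotype as well. All 7 B cell markers and all 4 MHC class II genes were higher in Tnfr2-/- cells, with B cell sums of 1836 to 4133 FPKM in Tnfr2-/- and 246 to 309 in WT cells. Class II sums were 18286 to 36128 FPKM in Tnfr2-/- and 2722 to 3973 in WT cells. Of 8 myeloid markers 5 were higher, the sum being 1515, 1099 and 237 in Tnfr2-/- and 115, 193 and 99.8 FPKM in WT cells. Of 4 tested erythroid genes 3 were higher. All 8 proliferation markers were lower, Mki67 and Top2a among them, with sums of 697, 495 and 365 FPKM in Tnfr2-/- and 1512, 1196 and 1565 in WT cells. Of 7 T cell markers 1 was lower and 1 higher, and their sum was 2457, 2057 and 1552 FPKM in Tnfr2-/- and 2403, 2536 and 2445 in WT cells. The library numbered 4 had the lowest member, proliferation and T cell sums and the highest B cell sum. Cd4 (−2.07, adjusted p = 0.0117), Cd8a (−3.10, adjusted p = 5.5e-05) and Cd8b1 (−2.14, adjusted p = 0.000104) were lower as well. Their sum was 89.2, 89.9 and 39.8 FPKM in Tnfr2-/- and 381, 387 and 411 in WT cells. Of 2 tested natural killer cell markers 1, Klrk1, was lower (−3.18, adjusted p = 8.07e-06). The summed FPKM of mitochondrially encoded genes was 19135, 18078 and 26301 in Tnfr2-/- and 16410.1, 16059 and 14141 in WT cells, without overlap, and was highest in the library numbered 4. Its part was not tested. In this design the cell makeup and the genotype cannot be told apart, so the members' difference is one between these libraries. The count of 18 fell to 9 and 5 without WT TNF plus TGF-β replicates 1 and 3 and to 7 without the library numbered 4. It was 28 under TPM and 28 with the length trend removed. The summed FPKM of all genes was 745932, 827752 and 767197 in Tnfr2-/- and 720170, 689045 and 733786 in WT cells. TPM divides by these sums, so it lowers all genes of the Tnfr2-/- libraries relative to WT, and not the members alone.

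**Figure D4:**
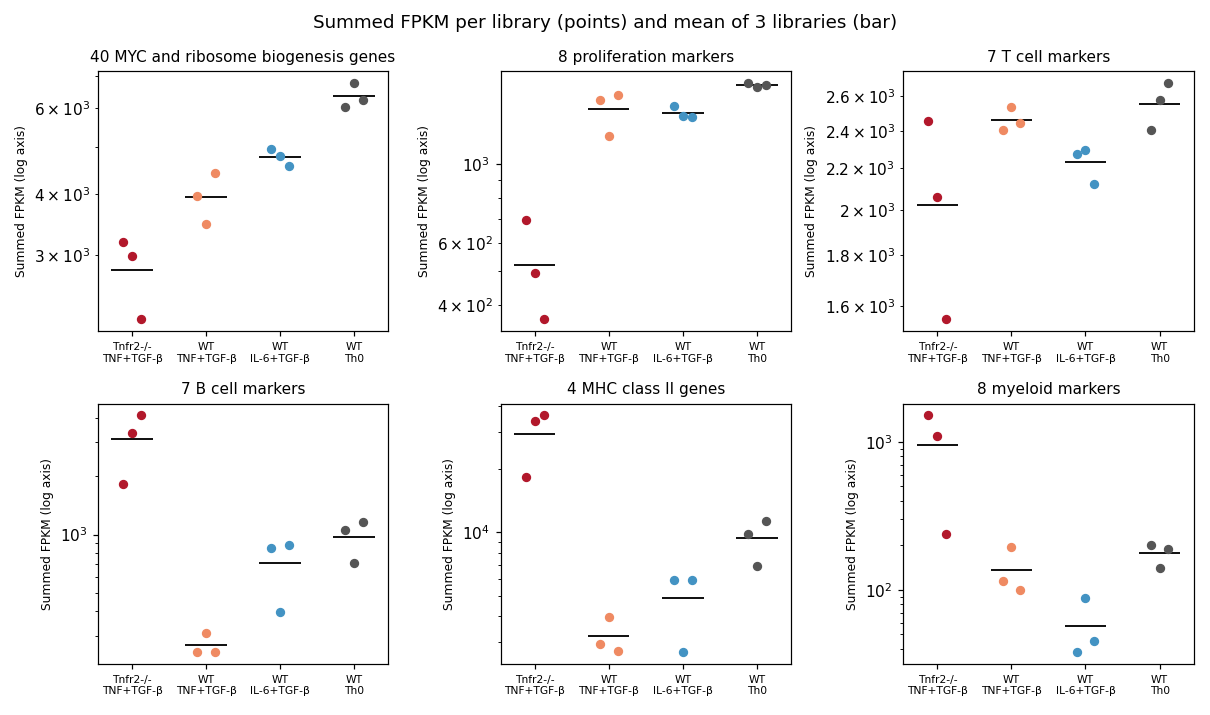
Summed FPKM per library on a log axis (points) with the mean of 3 libraries (bar), for the 40 members and 5 marker sets. The members and the proliferation markers are lowest in the 3 Tnfr2-/- libraries, where B cell and MHC class II sums are highest.

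Genes with neighbouring functions, from 7 lists that hold none of the 40, were set beside the shares of all tested genes printed above. The lists share the libraries, and the fit, of the members. Of 36 further small-subunit processome genes 15 (41.7%) fell and 0 rose with TNF plus TGF-β against Th0, the largest falls being Emg1 (−0.99, adjusted p = 0.00544) and Utp14a (−0.82, adjusted p = 0.00136). Of 36 further large-subunit genes 20 (55.6%) fell and 0 rose, with Rrp15 (−1.11, adjusted p = 0.00047) and Sdad1 (−1.06, adjusted p = 0.0015) first in size. Their medians were −0.36 and −0.44, and 13% of all tested genes fell. With IL-6 plus TGF-β 2 of the 36 small-subunit genes fell (5.56%, Utp18 and Nop14), below the 9.15% of all tested genes, and 7 of the 36 large-subunit genes did (19.4%), Mdn1 (−0.96, adjusted p = 0.00461) most. In Tnfr2-/- against WT cells 5 small-subunit (13.9%) and 6 large-subunit genes (16.7%) were lower, both shares under the 17.5% of all tested genes, and 1 of each was higher. The lower ones included Noc4l (−1.32, adjusted p = 0.00771), Bysl (−1.17, adjusted p = 0.0106), Pelp1 (−1.62, adjusted p = 0.00411) and Urb2 (−1.21, adjusted p = 0.0424), and the higher ones were Imp3 (0.57, adjusted p = 0.0275) and Ddx54 (0.70, adjusted p = 0.00148). Between the cytokine pairs 1 of the small-subunit genes, Nob1 (−0.64, adjusted p = 0.00868), was lower with TNF plus TGF-β. Of the large-subunit genes 3 were, which were Rrp1b (−1.23, adjusted p = 0.0011), Ebna1bp2 (−0.53, adjusted p = 0.0463) and Ppan (−0.50, adjusted p = 0.0259).

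Of 21 other polymerase I and III genes 6 fell with TNF plus TGF-β against Th0. Those that fell were the 4 polymerase I genes named above and, of polymerase III, Polr3g (−0.68, adjusted p = 0.00411) and Polr3d (−0.54, adjusted p = 0.0142). The 2 that rose were the polymerase III factor genes Gtf3c1 (0.96, adjusted p = 0.0138) and Brf1 (0.33, adjusted p = 0.0295). With IL-6 plus TGF-β Taf1d fell (−0.54, adjusted p = 0.0226) and Brf1 rose (0.50, adjusted p = 0.00447). Each is 4.76% of the 21, against 9.15% and 14.1% of all tested genes. In Tnfr2-/- cells Gtf3c1 was lower (−0.96, adjusted p = 0.0117), and Polr3g (0.45, adjusted p = 0.0301) and Polr3f (0.43, adjusted p = 0.034) were higher. That made 4.76% lower and 9.52% higher, against 17.5% and 19.9% of all tested genes. Of 11 tested genes of the RNA exosome, which trims ribosomal RNA precursors, 5 (45.5%) fell with TNF plus TGF-β against Th0, among them Exosc7 (−0.85, adjusted p = 0.012) and Exosc1 (−0.75, adjusted p = 0.00196). The exosome had 1 lower (9.09%) with IL-6 plus TGF-β, Exosc10 (−0.33, adjusted p = 0.0388). It had 2 lower (18.2%) between the pairs, Exosc8 (−0.66, adjusted p = 0.0163) and Exosc1 (−0.49, adjusted p = 0.0419). In Tnfr2-/- cells 3 were lower (27.3%), including Dis3 (−0.53, adjusted p = 0.0243). Of all tested genes 9.15%, 5.50% and 17.5% were lower in these comparisons.

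Several MYC-network genes outside the list rose with the cytokine pairs, where 18.7% and 14.1% of all tested genes rose. Mxd1 and Mxd4 encode proteins that take MAX away from MYC and repress its targets. Mxd4 was at 45.2 ± 5.89 FPKM with TNF plus TGF-β and 11.1 ± 2.34 in Th0 (SD, n = 3 each), with log2 difference 1.95 ± 0.17 (SE), adjusted p = 4.99e-06. Mxd1 was at 22.3 ± 2.96 FPKM with TNF plus TGF-β and 6.58 ± 1.77 in Th0 (log2 difference 1.64 ± 0.17 (SE), adjusted p = 2.57e-05), and it rose with IL-6 plus TGF-β (1.67, adjusted p = 2.3e-05), as did the related Mxi1 (1.38, adjusted p = 0.000174). Of 12 tested genes of this list 5 rose with TNF plus TGF-β and 4 with IL-6 plus TGF-β, and 0 fell in either. In Tnfr2-/- cells 2 were lower, Mxd3 (−1.06, adjusted p = 0.000766) and Mxd1 (−0.72, adjusted p = 0.00671), and 2 were higher, Bin1 (0.73, adjusted p = 0.0012) and Mga (0.46, adjusted p = 0.045). Each count is 16.7% of the 12, against 17.5% lower and 19.9% higher among all tested genes.

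Synthesis of nucleotides and polyamines was mixed. Of 16 purine and pyrimidine genes 9 fell (56.2%) and 1 rose (6.25%) with TNF plus TGF-β against Th0. Adss, a gene of AMP synthesis, fell (−1.21, adjusted p = 5.49e-06), as did Nme1 (−0.81, adjusted p = 0.023), while Prps1, which makes the ribose-phosphate precursor, was at 162 ± 22.9 FPKM with TNF plus TGF-β and 70.4 ± 3.65 in Th0 (1.18, adjusted p = 0.000302). With IL-6 plus TGF-β 5 fell (31.2%) and 2 rose (12.5%), again with Adss (−1.17, adjusted p = 7.6e-06) and Prps1 (1.43, adjusted p = 7.33e-05) first. In Tnfr2-/- cells 10 of the 16 (62.5%) were lower, Ctps (−0.92, adjusted p = 0.000999) and Pfas (−0.87, adjusted p = 0.0039) the most, and 0 higher. Of 11 tested polyamine genes 3 fell (27.3%) and 1 rose (9.09%) with TNF plus TGF-β against Th0. With IL-6 plus TGF-β 1 fell and 1 rose (9.09% each), and in Tnfr2-/- cells 3 were lower (27.3%) and 2 higher (18.2%). Smox, the spermine oxidase gene, rose with TNF plus TGF-β (2.11, adjusted p = 1.21e-05) and with IL-6 plus TGF-β (2.24, adjusted p = 7.83e-06). Sms, the spermine synthase gene, fell with IL-6 plus TGF-β (−1.07, adjusted p = 0.000263). In Tnfr2-/- cells Sat1, which encodes a catabolic polyamine acetyltransferase, was higher (1.14, adjusted p = 0.000219), and Azin1, the antizyme inhibitor gene, lower (−1.20, adjusted p = 0.0041).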

How the data were processed

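Bulk RNA sequencing gave 12 libraries, made with the SMARTer and Nextera XT kits per the labels' protocols, and Nextera XT does not mark the strand. Of the 40 members 13 have exons that overlap a gene on the other strand, and such reads cannot be assigned to a strand. The tools were RSEM 1.3.1, STAR 2.5.4 and Trimmomatic on mm10, per the submitters' processing notes. The authors deposited 1 RSEM value per gene and library, which was read as FPKM because the column sums differed between libraries, and the annotation is not given in the sources used here. RSEM divides reads between near-identical copies, so Npm3, whose copy Npm3-ps1 was listed at up to 1.54 FPKM, is uncertain to at least that extent. Copies were sought only under a member's symbol followed by -ps or -rs. Copies under other names, of any member, were not sought. Identifiers were matched to GENCODE M21 (GRCm38; 99.1% of the table), which gave coordinates and lengths.

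Values were transformed to log2(FPKM + 1) before a linear model per gene (limma 3.58.1, R 4.3.3) with a mean for each group, all 12 libraries, a variance prior following the mean level, and Benjamini-Hochberg adjustment over 13082 genes per comparison. This scale understates the change of low genes. The fit was tested on simulated data. To estimate depth, the smallest step between low values was sought in genes with 1 transcript, its length reduced by 300 bases. A whole multiple of that step was met within 0.2 by 68.2% to 82.6% of values, so depths are approximate. The limit of 3 fragments covers counting error only. The column numbered 4 was used as a member of the Tnfr2-/- group.

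The members and gene lists were chosen with earlier results of these data known, and lists are therefore described by counts and medians without a list test. Values in every library are given for Myc, Mycn, Max, Ncl, Npm1, Fbl, Odc1 and the 3 called members with the largest change per comparison. From each neighbouring list up to 2 called genes per direction and comparison were meant to be named, and for some lists more are. Other members given by library were chosen after their values were seen. The 2 pseudocounts were 1 and 0.1, and further alternatives were no filter, TPM, median-ratio scaling, a replicate block, each library left out, and, added after seeing the data, removal of the trend with transcript length. A further B cell marker and 1 further gene of a neighbouring list are not reported here.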

Additional observations from a re-analysis of the deposited data

How the results depend on the processing

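No member was called higher in any of the 4 comparisons under any alternative run, and no called member changed sign. The number lower with TNF plus TGF-β against Th0 stayed between 18 and 27 when single libraries were left out, and its median was −0.81 to −0.58 and moved to −0.52 under TPM. Against the 10 lower with IL-6 plus TGF-β, 5 were lower without the filter, 5 under TPM, 18 with the length trend removed, and 3 to 13 with single libraries left out. Against the 1 lower between the cytokine pairs, the count was 0 under TPM, 4 with median-ratio scaling, 4 with the length trend removed, and 0 to 6 with single libraries left out. Against the 18 lower in Tnfr2-/- cells, 28 were lower under TPM, 28 with the length trend removed, and 5 to 25 with single libraries left out. These counts are of members only, and the counts of all tested genes in the same runs are not given here. A changed count is therefore not a result about the members alone. The cause of these changes was not tested. Uncalled differences changed sign in 70 results over all tested members and alternative runs, and only some are given here. Their signs turned for Myc (0.14 under TPM, −0.20 to 0.16 with libraries left out) and Ubtf (0.17 under TPM, −0.06 to 0.03 with libraries left out) with TNF plus TGF-β against Th0. They turned for Cad with IL-6 plus TGF-β against Th0 (−0.43 to 0.37 with libraries left out) and between the pairs for Fbl (0.01 under TPM; −0.24 to 0.06 with libraries left out) and Polr1b (0 at a pseudocount of 0.1, 0.06 under TPM; −0.35 to 0.18 with libraries left out). In Tnfr2-/- cells they turned for Max (0 under TPM) and Ubtf (−0.04 under TPM; −0.01 to 0.18 with libraries left out).

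Whether the label numbers pair the samples was not settled, and the main fit used no pairing. Of 15 same-numbered pairs of libraries 5 had a correlation of their deviations over 0.1 (range −0.28 to 0.34). Th0 with IL-6 plus TGF-β had 0.29, 0.34 and 0.05 for the same numbers, against −0.34 to 0.1 for different numbers. IL-6 plus TGF-β with Tnfr2-/- had −0.28 and −0.13 for the same numbers, against −0.11 to 0.29 for different numbers. A replicate block, fitted without the library numbered 4, gave 26, 11, 4 and 3 lower members in the 4 comparisons in the order above. The last count differs from 18 by the block and by the left-out library together, and without that library but with no block it was 7. Depth limits Mycn only, the other 39 members being at 1 FPKM or more in every library.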
